A study of Mus musculus with 12 samples.

Results

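Genes of protein folding and of the cell stress responses were followed in RNA of mouse spinal cord. They were 39 genes on a list of chaperones and integrated stress response genes, each found by its mouse symbol among the 54838 genes of the count tables, and all 39 were found. By role they were 11 chaperones of the endoplasmic reticulum (ER), 3 ER disulfide isomerases, 4 genes of ER-associated degradation, 4 sensors and factors of the unfolded protein response, 7 genes of the integrated stress response, 5 inducible and 3 constitutive cytosolic heat shock genes, and the 2 genes of the mitochondrial chaperonin. Each of 4 groups held 3 libraries, and every mouse carried floxed Tet1 on both alleles (Tet1fl/fl). Control mice had no Cre (Olig1+/+), and mutant mice carried Olig1cre/+, which removes Tet1 exon 4 in cells of the oligodendrocyte lineage and leaves it in the others. In both genotypes RNA came from spinal cord of mice of either sex at postnatal day 60, either at 4 days post lesion (dpl) by injected lysolecithin, a detergent-like lipid that strips myelin, or from the contralateral side without a lesion, here called unlesioned. Lesioned and unlesioned libraries may therefore share mice. The tissue was enriched for oligodendroglia on a Percoll gradient and not sorted, and the labels do not say which libraries came from separate mice, so that p-values measure the spread between these libraries.

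The ER folds membrane and secreted proteins, among them the myelin proteins that oligodendrocytes make in bulk. When unfolded protein builds up there, the sensors encoded by Atf6, Ern1 (IRE1) and Eif2ak3 (PERK) turn on a shared program: chaperone and disulfide isomerase genes through ATF6 and spliced XBP1, and, through PERK and phosphorylated eIF2, translation of ATF4 with its targets such as Ddit3 (CHOP), Trib3, Chac1 and Asns. The PERK arm together with the other eIF2 kinases is called the integrated stress response, and the heat shock response is a separate program for the cytosol, driven by HSF1.

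Total counts per library were 34805086 to 67251544, the 39 genes took 0.568% to 1.2% of them, and their lowest count in any library was 57 (Hspb1). Tet1 was counted at 9.94 to 21.5 CPM (counts scaled to library size with TMM factors) in the mutant libraries and 11.7 to 18.3 CPM in the controls, but a count over the whole gene does not test for loss of its exon 4. Olig1, whose locus carries the Cre, had group means of 193 to 350 CPM. The summed level of 10 oligodendrocyte markers was 14760.1 to 70150 CPM, and those of 8 neutrophil markers and 8 phagocyte markers reached 114393 and 64092 CPM, so that the libraries held much RNA of blood and immune cells. In such bulk RNA, fewer cells of a type and less RNA per cell cannot be told apart.

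Per kilobase of exon, levels ranged over the 39 genes from 1.79 CPM for Trib3, a pseudokinase target of ATF4 and CHOP, to 271 CPM for Hsp90ab1, the constitutive cytosolic HSP90, as means of the 12 libraries. The next most abundant genes were Hspa8 (248), the constitutive cytosolic HSP70, and Hspa5 (242), the ER member of the same family known as BiP, followed by Pdia3 (219) and Calr (203). Among the stress response genes Ppp1r15a (GADD34), which directs the dephosphorylation of eIF2, had the highest level with 146 CPM per kilobase, and the sensor Ern1 had one of the lowest with 1.99. Inducible Hspa1a stood at 19.6 CPM per kilobase, far below its constitutive relative Hspa8.

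The comparison of lesioned with unlesioned cord asked which of these genes changed with demyelination. Averaged over the genotypes, 24 of 39 genes were higher at 4 dpl and 0 were lower (edgeR quasi-likelihood test, called at a p below 0.01 and a Benjamini-Hochberg adjusted p below 0.05), while 14.2% of all 31109 genes tested were called higher and 18.6% lower. A gene with an adjusted p under 0.05 and no call missed the limit on p. The 24 were 10 of 11 ER chaperones, 3 of 3 disulfide isomerases, 4 of 4 degradation genes, 1 of 4 sensors and factors, 0 of 7 integrated stress response genes, 3 of 5 inducible and 1 of 3 constitutive heat shock genes, and 2 of 2 chaperonin genes. The median log2 difference was 0.72 over the 39 genes, 0.94 over the ER chaperones, 1.17 over the disulfide isomerases and 0.16 over the integrated stress response genes.

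The choice of scaling moved these values. Genes with a mean of at least 10 CPM were higher at 4 dpl as a class, with 86% of them above 0, a median log2 difference of 0.47, 40.9% called higher and 0.445% lower. The median over all genes tested was -0.28, and 36 of the 39 genes were in the class of at least 10 CPM. The unlesioned libraries also had a count above 0 for more genes, 40023 to 44516 against 33964 to 37516 at 4 dpl. When scaling factors were taken from the genes of at least 10 CPM alone, an alternative chosen after seeing the data, the median of all genes moved to -0.78, the median of the 39 genes to 0.24, and 6 of them were called higher and 0 lower, against 2.54% of all genes and 7.52% of the genes of at least 10 CPM. These 6 were Canx, Calr, Pdia3, Pdia4, Pdia6 and Hspb1. Each of them was also called in all 12 fits that left out 1 library and under every other setting tried, while 16 of the 24 were called in all 12 fits. Directions that turned under this scaling are given beside each group.

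**Figure D1:**
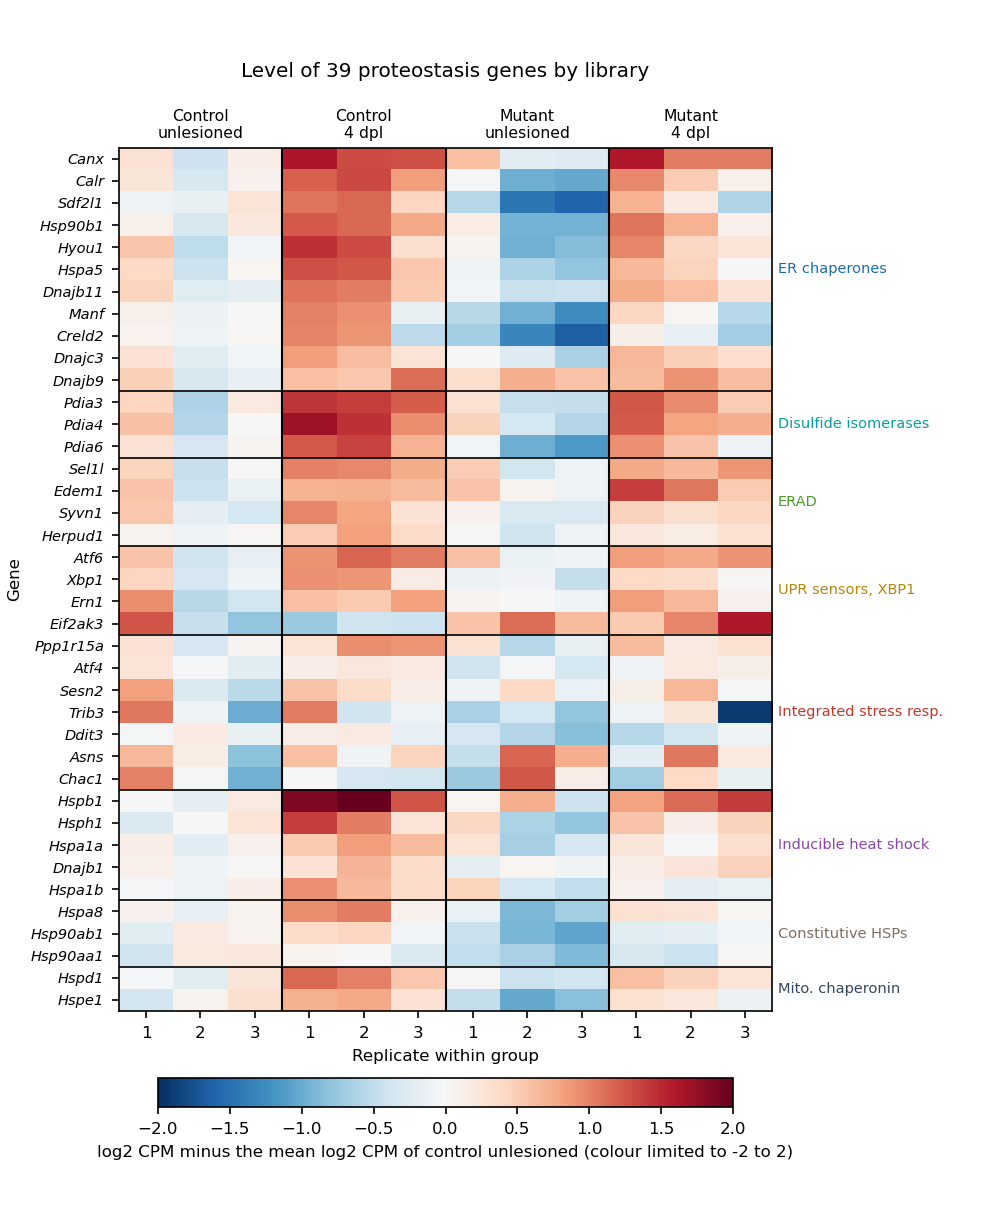
Level of each of the 39 genes (rows, grouped by role) in each of the 12 libraries (columns, 3 replicates per group), as log2 CPM minus the mean log2 CPM of the control unlesioned libraries, with red above and blue below that mean. Canx and Pdia4 are red in all 6 libraries at 4 dpl, many ER rows are paler in replicate 3 of each 4 dpl group, mutant unlesioned replicates 2 and 3 are the bluest columns of the ER chaperones, and the integrated stress response rows differ within groups.

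Most ER chaperones rose with the lesion, averaged over the genotypes, and the calnexin and calreticulin genes had the largest differences. Canx encodes calnexin, the membrane lectin that holds new glycoproteins until they fold (ENSMUSG00000020368, chr11:50293961-50325673, GRCm38). Its level was 307, 189 and 278 CPM in control unlesioned libraries and 776, 624 and 615 at 4 dpl. Canx in the mutant had 385, 215 and 211 CPM unlesioned and 769.7, 513 and 521 at 4 dpl. All 4 dpl libraries were above all unlesioned libraries of their genotype, and the averaged log2 difference was 1.27 ± 0.22 (SE), a 2.40-fold change with an adjusted p of 0.00298. Calr encodes calreticulin, the soluble partner of calnexin (ENSMUSG00000003814, chr8:84841850-84846934). It stood at 515, 351 and 461 CPM in control unlesioned libraries and 1004, 1093 and 779 at 4 dpl. Calr in the mutant had 424, 222 and 215 CPM unlesioned and 852, 623 and 470.2 at 4 dpl. Its groups did not overlap in either genotype, and the averaged log2 difference was 1.15 ± 0.23 (adjusted p = 0.00477).

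Hspa5, the BiP chaperone that binds unfolded protein and keeps the sensors inactive, was measured at 1045, 592 and 814 CPM in control unlesioned libraries and 1942, 1876 and 1155 at 4 dpl. Hspa5 in the mutant had 757, 515 and 462 CPM unlesioned and 1261, 1085 and 792 at 4 dpl. The 4 dpl libraries were above the unlesioned ones in each genotype, although mutant replicate 3 at 4 dpl exceeded mutant unlesioned replicate 1 only narrowly. The averaged log2 difference of Hspa5 was 0.94 ± 0.23 (adjusted p = 0.0092), and under the scaling on genes of at least 10 CPM it was 0.48 ± 0.19 and not called (adjusted p = 0.0596). Hsp90b1 (GRP94), the ER member of the HSP90 family, had 401, 300.3 and 434 CPM in control unlesioned libraries and 874, 833 and 631 at 4 dpl. Hsp90b1 in the mutant had 412, 194 and 193 CPM unlesioned and 788, 604 and 400.1 at 4 dpl. In the control genotype its groups did not overlap, whereas mutant replicate 3 at 4 dpl lay below mutant unlesioned replicate 1, and the averaged difference was 1.10 ± 0.25 (adjusted p = 0.00627). An antisense gene, 1810014B01Rik, shares 415 exon bases with Hsp90b1.

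Dnajb11, an ER-resident J-domain partner of BiP, had 111, 68.1 and 70.3 CPM in control unlesioned libraries and 173, 164 and 116 at 4 dpl. Dnajb11 in the mutant had 77.9, 59.5 and 59.995 CPM unlesioned and 136, 123 and 99.1 at 4 dpl. Its groups did not overlap in either genotype, and the averaged log2 difference was 0.86 ± 0.18 (adjusted p = 0.00512). Sdf2l1, a small protein found in complex with Dnajb11, had 89.7, 86.9 and 116 CPM in control unlesioned libraries and 204, 214 and 131 at 4 dpl. Sdf2l1 in the mutant had 64.9, 35.4 and 32.2 CPM unlesioned and 157, 108 and 63.5 at 4 dpl. It was lowest in mutant unlesioned replicates 2 and 3, overlapped between the mutant groups, and differed by 1.11 ± 0.25 on average (adjusted p = 0.00625). Of the remaining ER chaperones, Hyou1 (1.07 ± 0.26), Manf (0.79 ± 0.22), Creld2 (0.77 ± 0.25) and Dnajc3 (0.67 ± 0.17) were called higher, Creld2 in 3 of the 12 fits that left out a library. Dnajb9, a J-domain partner of BiP that acts on IRE1, was not called, with 0.45 ± 0.18 (adjusted p = 0.0568) and a value of -0.021 under the scaling on genes of at least 10 CPM. Under that scaling 10 of 11 ER chaperones kept a value above 0, with a median of 0.48, and 2 of them were called.

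The promoters of the ER genes are shown because they carry the letters of the ER stress response element (ERSE), the site bound by ATF6 with NF-Y. The search used RefSeq promoter windows of 300 bases (250 before to 50 after each start, GRCm38.p6), which matched 33 of the 39 genes. The motif, CCAAT followed by 9 bases of any kind and then CCACG, was searched on both strands. It was found in 8 of these 33 genes (24.2%) and in 37 of all 27025 genes (0.137%). The stretches below run 5′ to 3′ on the strand of the gene, end before the start site, and have the motif in capitals.
Hspa5 (chr2:34772010-34772058, plus strand): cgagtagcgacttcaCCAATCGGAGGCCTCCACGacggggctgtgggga
Hsp90b1 (chr10:86705518-86705671, minus strand): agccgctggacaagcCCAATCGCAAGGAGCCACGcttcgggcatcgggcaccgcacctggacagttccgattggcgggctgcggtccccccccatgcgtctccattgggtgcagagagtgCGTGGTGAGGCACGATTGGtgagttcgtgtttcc
Calr (chr8:84847060-84847108, minus strand): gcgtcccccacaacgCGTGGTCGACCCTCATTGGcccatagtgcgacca
Canx (chr11:50325785-50325833, minus strand): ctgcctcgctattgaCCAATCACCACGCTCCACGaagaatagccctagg
Dnajc3 (chr14:118937812-118937860, plus strand): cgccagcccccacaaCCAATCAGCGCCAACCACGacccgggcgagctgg
Creld2 (chr15:88819505-88819553, plus strand): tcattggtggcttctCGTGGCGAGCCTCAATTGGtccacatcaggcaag
Pdia6 (chr12:17266476-17266524, plus strand): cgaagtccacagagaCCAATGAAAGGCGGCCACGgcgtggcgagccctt
Syvn1 (chr19:6046517-6046565, plus strand): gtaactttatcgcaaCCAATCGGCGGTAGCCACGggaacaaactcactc
All 8 genes with the motif were called higher at 4 dpl, as were 20 of all 33 genes searched. Among the ER genes searched without it, Pdia3, Pdia4, Dnajb11, Sdf2l1, Sel1l, Edem1 and Herpud1 were also called, and Dnajb9 was not. Most ER genes searched were thus called with or without the motif. Under the scaling on genes of at least 10 CPM 3 of the 8 with the motif were called (Calr, Canx and Pdia6), as were Pdia3 and Pdia4 without it. Hsp90b1 held the motif on each strand. In Calr and Creld2 it lay on the opposite strand, so that the capitals read from the gene strand begin with CGTGG. A related motif, ERSE-II (ATTGG, 1 base of any kind, then CCACG), was found in Herpud1 and Dnajb11, 2 of 33 genes (6.06%) against 0.0444% of all genes, and the Herpud1 stretch shows it.
Herpud1 (chr8:94386362-94386402, plus strand): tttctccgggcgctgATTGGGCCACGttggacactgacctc
A match of letters is a description of the sequence and does not show binding in these cells.

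The disulfide isomerases, which form and exchange disulfide bonds in folding proteins, had the highest median difference of the 8 roles. Pdia3 (ERp57), which works on glycoproteins held by calnexin and calreticulin (ENSMUSG00000027248, chr2:121413775-121438687), had 582, 280.1 and 493 CPM in control unlesioned libraries and 1162, 1128 and 994 at 4 dpl. Pdia3 in the mutant had 533, 313 and 311 CPM unlesioned and 1019.7, 830.3 and 614 at 4 dpl. Its groups did not overlap in either genotype, with an averaged log2 difference of 1.18 ± 0.23 and an adjusted p of 0.00442. Pdia4 (ERp72; ENSMUSG00000025823, chr6:47796141-47813430) had 168, 74.3 and 112 CPM in control unlesioned libraries and 363, 306 and 212 at 4 dpl. Pdia4 in the mutant had 155, 87.7 and 74.4 CPM unlesioned and 263, 194 and 185 at 4 dpl. It was higher in every 4 dpl library than in the unlesioned libraries of the same genotype, by 1.17 ± 0.25 on average (adjusted p = 0.00524). Pdia6 (P5; ENSMUSG00000020571, chr12:17266545-17284770) had 253, 163 and 214 CPM in control unlesioned libraries and 481, 530.1 and 335 at 4 dpl. Pdia6 in the mutant had 199.7, 106 and 93.0 CPM unlesioned and 389, 308 and 193 at 4 dpl. Mutant replicate 3 at 4 dpl lay just below mutant unlesioned replicate 1, and the averaged difference of Pdia6 was 1.13 ± 0.24 (adjusted p = 0.00565). Under the scaling on genes of at least 10 CPM all 3 were still called, with 0.73, 0.72 and 0.67 for Pdia3, Pdia4 and Pdia6.

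**Figure D2:**
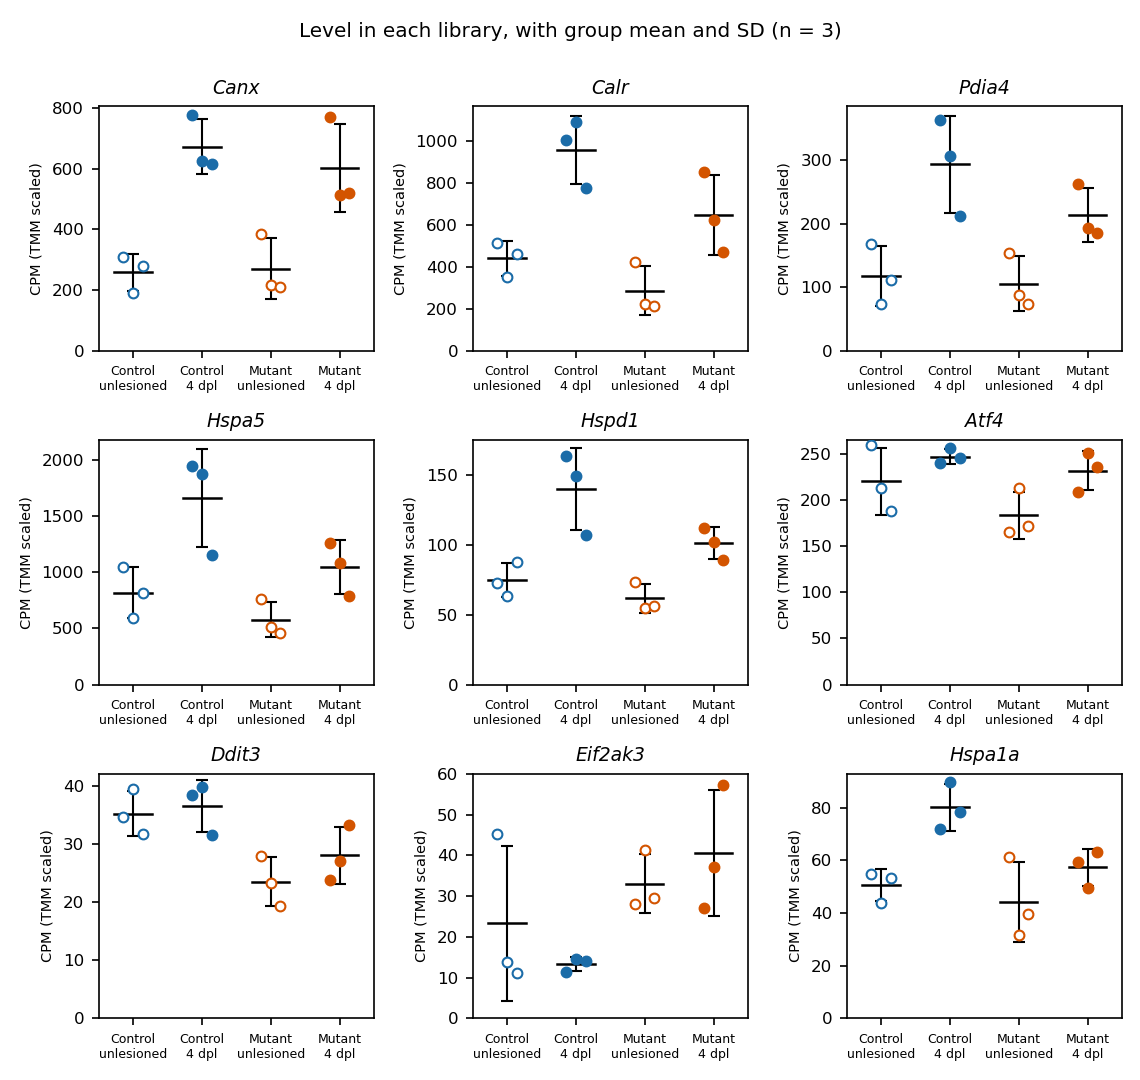
Level in CPM (TMM scaled) of 9 genes in each library, with open symbols for unlesioned and filled symbols for 4 dpl libraries, blue for control and orange for mutant, and the group mean and SD (n = 3) in black. Canx, Calr, Pdia4, Hspa5 and Hspd1 are higher in every 4 dpl library than in the unlesioned libraries of the same genotype, whereas Atf4 and Ddit3 overlap, and their differences turn below 0 under the scaling on genes of at least 10 CPM.

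ER-associated degradation moves misfolded protein back to the cytosol for the proteasome. Its 4 genes were called higher on average: Sel1l (0.78 ± 0.20) and Syvn1 (0.61 ± 0.19), adaptor and ubiquitin ligase of one membrane complex, Edem1 (0.72 ± 0.22), a mannosidase-like lectin, and Herpud1 (0.48 ± 0.15), which stabilizes the complex. None of the 4 was called under the scaling on genes of at least 10 CPM, where Herpud1 stood at -0.0066, and Syvn1 and Herpud1 lost the call when any of 6 and 8 single libraries was left out, and Edem1 when any of 5 was. Among genes of the same compartment outside the list, 16 of 21 other oxidoreductases and folding enzymes, 20 of 24 genes of the translocon, signal peptidase and oligosaccharyltransferase, and 13 of 21 further degradation genes were called higher and 0 lower, beside 40.9% of genes of at least 10 CPM. The genes with the smallest p in each list included the cyclophilin Ppib (0.85 ± 0.14), the BiP exchange factor Sil1 (0.89 ± 0.17), the oligosaccharyltransferase subunits Rpn2 (1.06 ± 0.18) and Ddost (0.90 ± 0.16), and Derl2 (0.77 ± 0.15). With the scaling on genes of at least 10 CPM, 4, 8 and 0 of these 3 lists were called higher, and 1 further degradation gene was called lower. The share of all genes of at least 10 CPM called higher was then 7.52%.

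Of the 4 sensors and factors of the unfolded protein response, Atf6 alone was called. Atf6, the sensor that is cut to release a transcription factor, had 55.5, 28.4 and 33.3 CPM in control unlesioned libraries and 69.8, 84.0 and 76.8 at 4 dpl. Atf6 in the mutant had 56.2, 34.1 and 35.2 CPM unlesioned and 67.0, 63.6 and 69.8 at 4 dpl. Its groups did not overlap in either genotype, and it was called higher on average (0.83 ± 0.19, adjusted p = 0.00695) but not under the scaling on genes of at least 10 CPM (0.38, adjusted p = 0.0386). Xbp1, the factor whose mRNA is spliced by IRE1, had 229, 134 and 160.4 CPM in control unlesioned libraries and 320.3, 313 and 188 at 4 dpl. Xbp1 in the mutant had 158, 162 and 123 CPM unlesioned and 223, 220.0 and 173 at 4 dpl. The control groups of Xbp1 overlapped and the mutant groups did not, and its averaged difference of 0.56 ± 0.19 was not called (adjusted p = 0.0336). Gene counts do not separate spliced from unspliced Xbp1.

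Ern1, which encodes the kinase and nuclease IRE1, had 24.1, 8.61 and 9.69 CPM in control unlesioned libraries and 19.2, 18.2 and 22.3 at 4 dpl. Ern1 in the mutant had 13.1, 12.6 and 11.7 CPM unlesioned and 22.6, 19.9 and 13.3 at 4 dpl. Control unlesioned replicate 1 had the highest value of Ern1, and the averaged difference was 0.54 ± 0.24 (adjusted p = 0.0865). Eif2ak3, which encodes the eIF2 kinase PERK, had 45.2, 13.8 and 11.001 CPM in control unlesioned libraries and 11.3, 14.4 and 14.1 at 4 dpl. Eif2ak3 in the mutant had 28.2, 41.3 and 29.6 CPM unlesioned and 27.1, 37.2 and 57.4 at 4 dpl. Control unlesioned replicate 1 stood at more than 3 times the level of the other control unlesioned libraries, and the averaged difference of -0.26 ± 0.31 was not called (adjusted p = 0.509). The control and mutant values of Eif2ak3 had opposite signs, -0.81 ± 0.44 and 0.30 ± 0.43, without a call in either, and the sign turned in each of them when single libraries were left out. Of 18 further regulators of the response, 11 (61.1%) were called higher and 0 lower, beside 40.9% of genes of at least 10 CPM called higher. Under the scaling on those genes 2 (11.1%) were called higher and 1 lower, beside 7.52% of those genes called higher. The smallest p values were those of Bax (0.78 ± 0.14), the tRNA ligase Rtcb, which joins the cut Xbp1 mRNA (1.01 ± 0.18), and the coat protein Sec24d (1.35 ± 0.24).

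None of the 7 integrated stress response genes was called by edgeR in any comparison. Atf4, the transcription factor of this response, had 259.6, 212 and 188 CPM in control unlesioned libraries and 239, 256 and 245 at 4 dpl. Atf4 in the mutant had 165, 213 and 171 CPM unlesioned and 209, 250.2 and 236 at 4 dpl. Its groups overlapped in both genotypes, and the averaged log2 difference was 0.25 ± 0.15 (adjusted p = 0.191), with an interval of 2 SE on either side of -0.054 to 0.56. Ddit3, which encodes the proapoptotic factor CHOP, had 34.7, 39.5 and 31.7 CPM in control unlesioned libraries and 38.5, 39.8 and 31.5 at 4 dpl. Ddit3 in the mutant had 27.9, 23.3 and 19.4 CPM unlesioned and 23.8, 27.1 and 33.4 at 4 dpl. Its groups overlapped in both genotypes, and its averaged difference was 0.15 ± 0.15 (adjusted p = 0.419). Ddit3 shares 68 exon bases with Mars on the opposite strand, and reads from these cannot be told apart. ATF4 is regulated mainly at translation, which RNA counts do not measure.

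Among the targets, Asns, which makes asparagine, differed by 0.024 ± 0.31, Trib3 by 0.16 ± 0.40, Sesn2, which restrains mTORC1, by 0.22 ± 0.23, and Chac1, which degrades glutathione, by -0.48 ± 0.37. Ppp1r15a had the largest of these averaged differences, 0.59 ± 0.21, with an adjusted p of 0.0365, and it was called in 3 of the 12 fits that left out a library. Under the scaling on genes of at least 10 CPM the values of Atf4 (-0.24), Ddit3 (-0.34), Sesn2 (-0.24), Trib3 (-0.29) and Asns (-0.46) turned below 0, Chac1 moved to -0.96 and Ppp1r15a to 0.13, so that 6 of 7 were below 0 with a median of -0.29. The smallest adjusted p there was 0.0438, for Chac1, with a p of 0.0177. No direction is therefore given for the 5 genes whose sign turned.

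The letters of the C/EBP-ATF response element (CARE, TGATGNAA), to which ATF4 binds with C/EBP factors, were found on either strand in Asns, Chac1, Trib3 and Herpud1, 4 of 33 genes (12.1%), and in 4.51% of all genes. Asns and Chac1 are shown, as response genes that carry it before the start.
Asns (chr6:7693210-7693247, minus strand): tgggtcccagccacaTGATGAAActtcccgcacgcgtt
Chac1 (chr2:119351034-119351071, plus strand): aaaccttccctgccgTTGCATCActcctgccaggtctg
The Chac1 motif lies on the opposite strand, and neither gene was called.

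Outside the list, 9 of 26 other reported targets of ATF4 and CHOP were called higher and 0 lower, a share of 34.6% beside 40.9% of genes of at least 10 CPM, and 2 were called higher and 4 lower under the scaling on genes of at least 10 CPM. The smallest p values were those of the secreted stress factor Gdf15 (2.08 ± 0.43), the amino acid transporter subunit Slc3a2 (0.92 ± 0.20) and the autophagy receptor Sqstm1 (0.94 ± 0.22). Of 12 aminoacyl-tRNA synthetases 11 were called higher, with Tars at 1.05 ± 0.20 and Eprs at 0.89 ± 0.18, and of 17 genes of the eIF2 module 11 were, with Eif2s1 at 0.99 ± 0.19. These counts became 2 of 12 and 2 of 17 under the other scaling, with 0 lower, beside 7.52% of genes of at least 10 CPM called higher.

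The inducible heat shock genes of the cytosol differed in size of response. Hspb1 (HSP27; ENSMUSG00000004951, chr5:135887919-135889563), a small heat shock protein, had 1.73, 1.51 and 1.95 CPM in control unlesioned libraries and 6.29, 8.08 and 4.12 at 4 dpl. Hspb1 in the mutant had 1.77, 2.85 and 1.29 CPM unlesioned and 3.001, 3.76 and 4.53 at 4 dpl. It was the least abundant of the called genes, its groups did not overlap in either genotype, and its averaged difference of 1.38 ± 0.26 was the largest of the 39 genes (adjusted p = 0.00394). Hspa1a, one of a pair of near-identical inducible HSP70 genes, had 54.8, 43.7 and 53.1 CPM in control unlesioned libraries and 72.0, 89.8 and 78.3 at 4 dpl. Hspa1a in the mutant had 61.1, 31.7 and 39.7 CPM unlesioned and 59.3, 49.4 and 63.2 at 4 dpl. The control groups did not overlap and the mutant groups did, and the averaged difference was 0.52 ± 0.17 (adjusted p = 0.0288), which fell to 0.047 under the scaling on genes of at least 10 CPM and lost its call when any of 9 single libraries was left out.

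Hspa1b, the other gene of the pair, had 41.7, 39.6 and 46.3 CPM in control unlesioned libraries and 80.0, 66.8 and 55.0 at 4 dpl. Hspa1b in the mutant had 58.1, 33.2 and 30.1 CPM unlesioned and 45.0, 37.0 and 38.9 at 4 dpl. Its control groups did not overlap and differed by 0.66 ± 0.25, those of the mutant overlapped and differed by -0.0058 ± 0.25, and the average was 0.33 ± 0.18 (adjusted p = 0.148), which turned to -0.15 under the other scaling. There the mutant value was -0.50 ± 0.23 and the control value 0.19 ± 0.23, neither of them called. Reads of Hspa1a and Hspa1b can be lost or misplaced between the copies under unique alignment, so that their single values are uncertain. Hsph1, the HSP110 exchange factor, was called higher (0.79 ± 0.24), in 7 of the 12 fits that left out a library, and Dnajb1, the J-domain partner of HSP70, was not (0.40 ± 0.15, adjusted p = 0.042), with -0.091 under the scaling on genes of at least 10 CPM.

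Of the constitutive genes Hspa8 was called higher (0.74 ± 0.22, adjusted p = 0.0185), in 8 of the 12 fits that left out a library. Hsp90ab1 (0.44 ± 0.19) and Hsp90aa1 (0.18 ± 0.18) were not called, and both turned below 0 under the scaling on genes of at least 10 CPM, to -0.059 and -0.34. Of 36 further cochaperones and heat shock genes 18 (50%) were called higher and 0 lower, beside 40.9% of genes of at least 10 CPM called higher. The 18 included the HSP70 cochaperone St13 (0.96 ± 0.18) and the collagen chaperone of the ER Serpinh1 (1.32 ± 0.27). Of 14 subunits of the cytosolic chaperonin and prefoldin 12 (85.7%) were called higher, with Cct4 at 0.77 ± 0.14 and Tcp1 at 0.87 ± 0.17. Under the other scaling these counts were 2 of 36 (5.56%), with 1 lower, and 2 of 14 (14.3%), beside 7.52% of genes of at least 10 CPM called higher.

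The 2 genes of the mitochondrial chaperonin lie head to head, share a promoter, and overlap on opposite strands in 112 exon bases, whose reads cannot be told apart. Hspd1 (HSP60) had 72.5, 63.8 and 88.1 CPM in control unlesioned libraries and 164, 149 and 108 at 4 dpl. Hspd1 in the mutant had 73.6, 55.2 and 56.6 CPM unlesioned and 112, 102 and 89.7 at 4 dpl. All 4 dpl libraries exceeded the unlesioned libraries of their genotype, and the averaged difference was 0.81 ± 0.16 (adjusted p = 0.00465). Hspe1 (HSP10), the lid of the chamber, had 36.3, 49.7 and 59.2 CPM in control unlesioned libraries and 77.5, 80.9 and 58.1 at 4 dpl. Hspe1 in the mutant had 33.9, 23.3 and 26.5 CPM unlesioned and 58.9, 55.4 and 43.5 at 4 dpl. Its control groups overlapped at replicate 3 of each, its mutant groups did not, and the averaged difference was 0.75 ± 0.17 (adjusted p = 0.00687). Neither was called under the scaling on genes of at least 10 CPM (0.32 and 0.24). Of 13 other genes of mitochondrial protein quality control 11 (84.6%) were called higher and 0 lower, beside 40.9% of genes of at least 10 CPM called higher. The 11 were led by the protease subunit Clpx (0.90 ± 0.15) and Trap1, the mitochondrial HSP90 (0.76 ± 0.16). Under the other scaling 3 of 13 (23.1%) were called higher, beside 7.52% of genes of at least 10 CPM.

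The heat shock element, the pattern to which HSF1 binds, was searched as GAA, TTC and GAA with 2 bases of any kind between them. It was found on either strand in Hspd1, Hspe1 and Hsph1, 3 of 33 genes (9.09%), against 0.662% of all genes. The shared promoter holds it on both strands in overlapping copies, seen in the windows of Hspd1 and Hspe1 alike, and it is printed as the one site that belongs to both genes.
Hspd1 (chr1:55088044-55088091, minus strand): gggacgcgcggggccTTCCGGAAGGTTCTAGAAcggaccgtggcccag

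**Figure D3:**
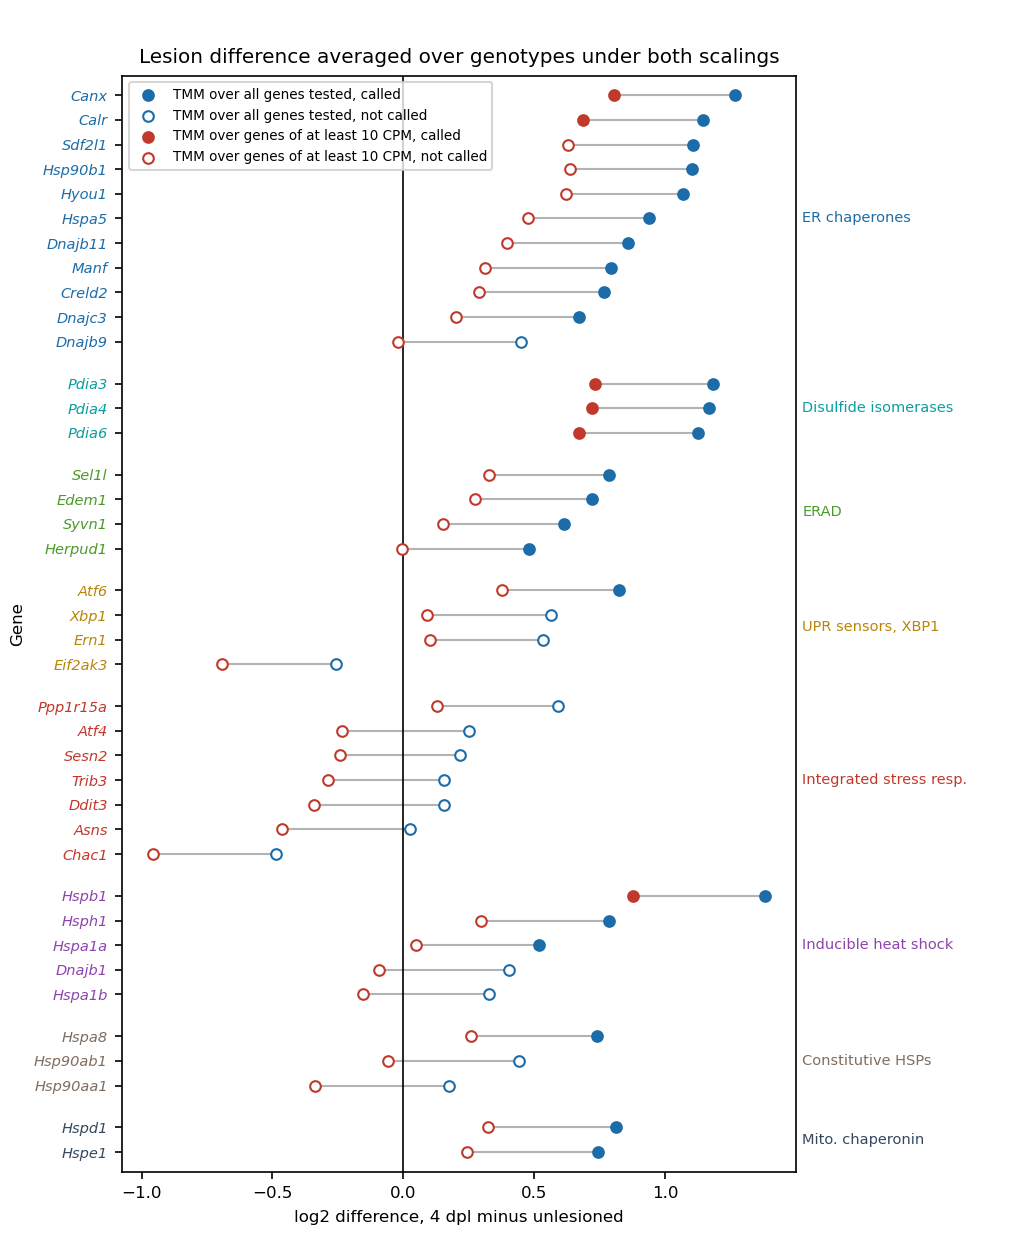
Lesion difference averaged over the genotypes (log2, 4 dpl minus unlesioned) of each gene under TMM over all genes tested (blue) and under TMM over genes of at least 10 CPM (red), joined by a grey line, with filled symbols for called genes. The second scaling moves every gene to the left, leaves 6 called, and leaves 6 of 7 integrated stress response genes below 0, against 1 (Chac1) under the first.

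Ratios between genes within a library do not depend on scaling. The summed CPM of the 14 ER chaperones and disulfide isomerases over that of the 7 integrated stress response genes was 4.63, 4.04 and 5.30 in control unlesioned libraries and 9.49, 7.09 and 5.38 at 4 dpl. In the mutant it was 4.87, 3.42 and 3.21 and 7.31, 6.09 and 4.83. The control groups did not overlap, with replicate 3 at 4 dpl just above the highest unlesioned value, and the mutant groups overlapped between unlesioned replicate 1 and replicate 3 at 4 dpl.

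The ratio of Canx to Atf4 was 1.18, 0.889 and 1.48 in control unlesioned libraries and 3.24, 2.44 and 2.51 at 4 dpl, and 2.34, 1.01 and 1.23 in mutant unlesioned libraries and 3.69, 2.05 and 2.21 at 4 dpl. It was higher at 4 dpl in every control library, and in the mutant all but unlesioned replicate 1 lay below the 4 dpl values. The ratio of Hspa5 to Ddit3 was 30.1, 15.003 and 25.7 in control unlesioned libraries and 50.4, 47.1 and 36.6 at 4 dpl, without overlap, and 27.2, 22.1 and 23.8 against 53.0, 40.0 and 23.7 in the mutant, with overlap. These ratios are compared between libraries only and are given without a test.

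Within single genotypes fewer calls were made. In the control 8 of 39 genes were called higher and 0 lower (Hspb1, Canx, Hspd1, Pdia3, Pdia4, Atf6, Calr and Dnajb11), against 5.12% of all genes (14.7% of those of at least 10 CPM) called higher and 5.01% lower, with differences of 0.86 for Dnajb11 to 1.83 for Hspb1. This count rested on single libraries: it was 0 without control unlesioned replicate 2 or 3 or without control 4 dpl replicate 1 or 2, 2 without mutant unlesioned replicate 3, 5 without mutant 4 dpl replicate 1 or 2, and 20 without control unlesioned replicate 1. In the mutant 0 of 39 genes passed with edgeR, against 0.0225% of all genes called higher and 0.113% lower. There 22 of the 39 had a p under 0.05, all higher, beside 15.9% of all genes and 45.7% of those of at least 10 CPM. DESeq2 called 9 genes in the mutant and limma with voom and sample weights called 20, and edgeR called 14 without control unlesioned replicate 1 and 15 without mutant unlesioned replicate 1.

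The 39 genes had a median lesion difference of 0.66 in control cord and of 0.67 in mutant cord, beside -0.36 and -0.18 over all genes and 0.40 and 0.54 over genes of at least 10 CPM. Under the scaling on genes of at least 10 CPM the medians of the 39 genes were 0.23 and 0.17. In 19 of 39 genes the control groups did not overlap and were higher at 4 dpl, beside 16.5% of all genes and 42.1% of genes of at least 10 CPM, and in 21 of 39 the mutant groups did so, beside 18.8% and 51%. Both held for 12 of 39 genes, beside 11% and 31.5%: Canx, Calr, Hspa5, Dnajb11, Pdia3, Pdia4, Sel1l, Herpud1, Atf6, Hspb1, Dnajb1 and Hspd1.

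**Figure D4:**
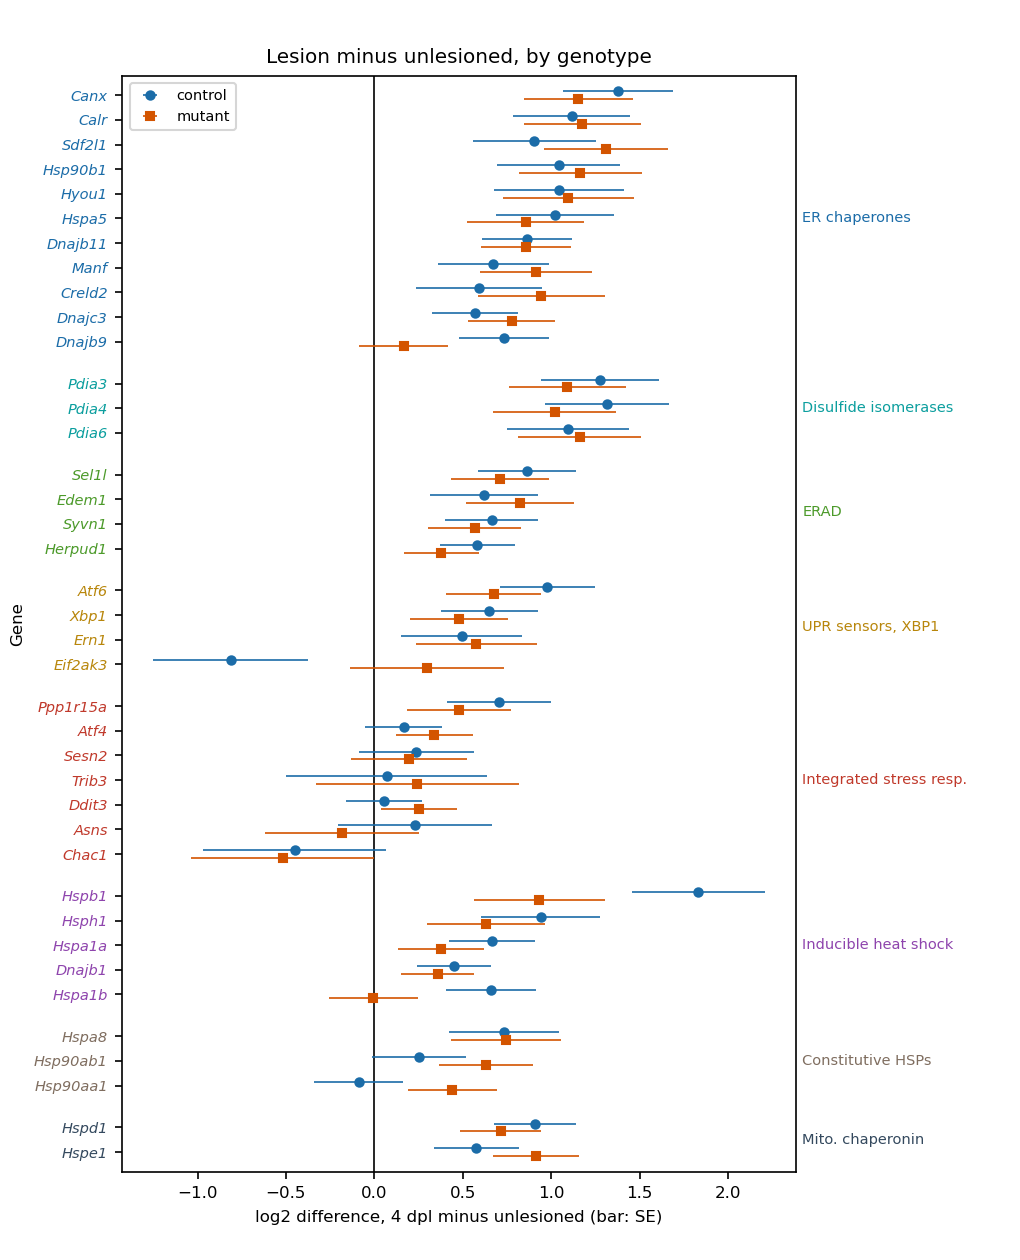
Log2 difference of 4 dpl from unlesioned libraries with its SE for each gene, by role, in the control (blue circles) and the mutant genotype (orange squares), under TMM over all genes tested. ER chaperones and disulfide isomerases lie above 0 in both genotypes, the integrated stress response genes lie nearer to 0, most of them shifting below it under the scaling on genes of at least 10 CPM, and the widest gaps between genotypes are those of Eif2ak3 and Hspb1.

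The interaction of genotype and lesion asked whether loss of Tet1 changed the response. No gene passed among the 39 or among all genes tested with edgeR, and no gene of the 39 had a p under 0.05, beside 3.81% of all genes in either direction. Under the scaling on genes of at least 10 CPM 2 of 39 had a p under 0.05, beside 1128 of all 31109 genes. These were 1 ER chaperone and 1 inducible heat shock gene, and neither was called. DESeq2 and limma with voom likewise called 0 of 39. The lowest value, mutant minus control response, was -0.90 ± 0.52 for Hspb1 and the highest 1.11 ± 0.62 for Eif2ak3, whereas Calr had 0.059 ± 0.46 and Atf4 0.17 ± 0.31. An interval of 2 SE on either side ran from -1.09 to 0.64 for Canx and from -1.09 to 0.76 for Hspa5, so that equal responses are not shown.

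Between the genotypes in unlesioned cord 0 of 39 genes were called by edgeR, DESeq2 or limma, beside 0% of all genes by edgeR. A lower value in the mutant was found for 30 of 39, beside 48.2% of all genes and 56.3% of genes of at least 10 CPM, and 7 had a p under 0.05, all lower, beside 3.5% of all genes and 8.21% of the genes of at least 10 CPM. These 7 were Creld2 (-1.16 ± 0.36), Sdf2l1 (-1.14 ± 0.35), Manf (-0.90 ± 0.32), Hspe1 (-0.79 ± 0.24), Hsp90ab1 (-0.79 ± 0.27), Hsp90aa1 (-0.70 ± 0.25) and Ddit3 (-0.58 ± 0.21), with adjusted p of 0.696 to 0.808. Creld2, an ER-resident disulfide isomerase-like protein, was 63.7, 56.4 and 61.1 CPM in control and 37.5, 24.4 and 19.5 CPM in mutant unlesioned libraries. The same 7 of the 39 were lower without overlap, beside 6.28% of all genes. Having been chosen by p in this comparison, they could hardly overlap, so this is no separate evidence. Mutant unlesioned replicates 2 and 3 were the lowest of the 12 libraries for each of the 7. Markers of other cells moved both ways in the same comparison. The 6 erythroid markers had a median of -1.33, with 6 of 6 lower and 4 at a p under 0.05. The 8 phagocyte markers had a median of -0.62, with 8 of 8 lower, and 6 of 7 plasma cell markers were lower (-0.41). Higher in the mutant were 8 of 8 microglia (median 0.43), 5 of 6 progenitor (0.84), 5 of 7 astrocyte (0.41) and 6 of 8 neuron markers (0.28). Of these, 3 progenitor, 2 astrocyte, 1 microglia and 1 neuron markers had a p under 0.05. The part of these cells in the genotype difference was not tested.

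At 4 dpl 0 of 39 genes were likewise called, beside 0% of all genes by edgeR. A lower value in the mutant was found for 35 of 39, beside 45.9% of all genes and 49% of genes of at least 10 CPM, with a median of -0.38 over the 39 and -0.53 over the ER chaperones. Of 3 genes with a p under 0.05, beside 5.15% of all genes higher and 1.77% lower, Hspa1b (-0.74 ± 0.25, adjusted p = 0.457) and Creld2 (-0.80 ± 0.36, adjusted p = 0.68) were lower and Eif2ak3 was higher (1.61 ± 0.45, adjusted p = 0.332). Under the scaling on genes of at least 10 CPM 8 of 39 had a p under 0.05, beside 2181 of all 31109 genes: Hspd1, Hspa5, Manf, Creld2, Sdf2l1, Hspa1a and Hspa1b were lower and Eif2ak3 higher, none of them called. The mutant values of Eif2ak3 at 4 dpl, 27.1, 37.2 and 57.4 CPM, were all above those of the control, 11.3, 14.4 and 14.1 CPM, as in 7.34% of all genes. Lower without overlap were Hspa1a, Hspa1b, Herpud1 and Atf6, beside 5.44% of all genes. Eif2ak3 was called in 1 of 12 fits that left out a library, without control unlesioned replicate 1 (1.61 ± 0.27, adjusted p = 0.0399). An antisense gene, Gm43292, shares 485 exon bases with Eif2ak3, and without knowledge of strand in the counting their reads cannot be told apart, though its own count was 430 over all libraries against 16516.

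**Figure D5:**
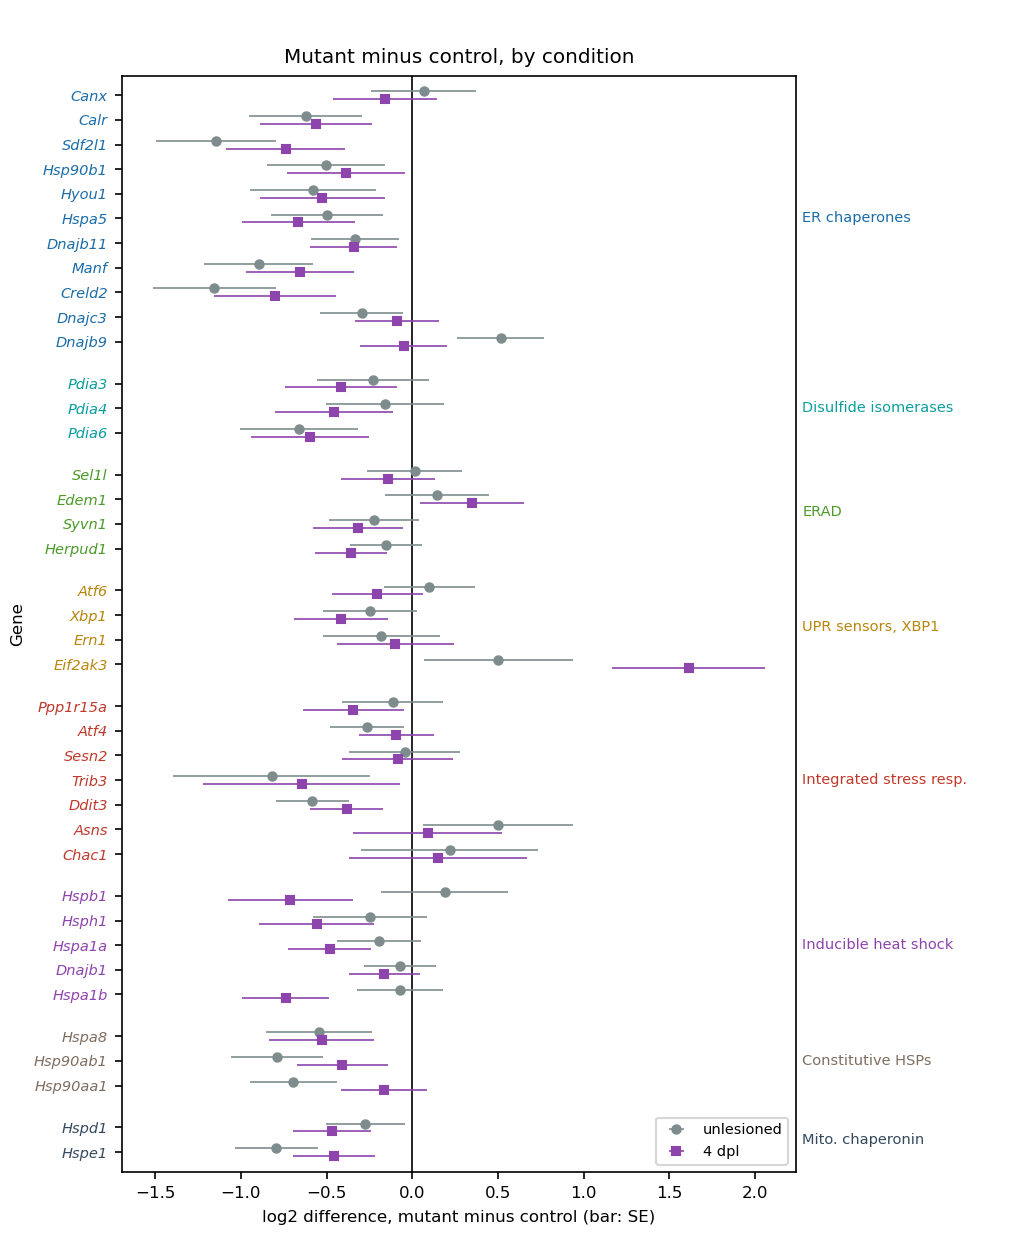
Log2 difference of mutant from control libraries with its SE for each gene, by role, in unlesioned cord (grey circles) and at 4 dpl (purple squares). Of 39 genes, 30 lie below 0 in unlesioned cord and 35 at 4 dpl, none is called, and Eif2ak3 at 4 dpl stands farthest to the right.

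Markers of other cells moved with the lesion as well. The summed level of 8 phagocyte markers was 15999 to 22589.7 CPM in control unlesioned libraries and 54592 to 64092 at 4 dpl, and 11933 to 19631 and 29128 to 48127 in the mutant. The 8 microglia markers summed to 2500.0 to 5089.8 and 8645 to 14536 CPM in the control and to 2788 to 9266 and 8433 to 13214 in the mutant. The 7 astrocyte markers summed to 192 to 216 and 324 to 603 CPM in the control and to 230 to 293 and 331 to 613 in the mutant. Neutrophil markers went the other way, with 8 of 8 lower at 4 dpl in the control (median -1.41) and in the mutant (-0.48). Their sums were 44413 to 94465 and 28185 to 34852 CPM in the control and 28876 to 114393 and 20785 to 103471 in the mutant. The 6 erythroid markers were all lower at 4 dpl in the control (median -1.31) and all higher in the mutant (0.31), without a call in either. The 6 progenitor markers were all higher, with a median of 1.31 and 3 called in the control and a median of 0.30 and 0 called in the mutant. The summed ER chaperones had 1872 to 2874 and 3835 to 5609 CPM in the control and 1400.0 to 2429 and 2703 to 4456 in the mutant, so that they were higher at 4 dpl. The phagocyte sums were higher too. Averaged over the genotypes, so were 8 of 8 microglia, 10 of 10 oligodendrocyte, 6 of 6 progenitor and 6 of 7 astrocyte markers. The share of genes of at least 10 CPM above 0 was 86%. At 4 dpl 7 of 8 phagocyte markers were lower in the mutant without overlap, with a median of -0.94, beside -0.53 for the ER chaperones. Of the 8, 1 had a p under 0.05. In the same comparison 10 of 10 oligodendrocyte markers (median 0.68) and 6 of 8 neutrophil markers (0.75) were higher. The part of these cell types in the differences of the ER genes was not tested.

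The 10 oligodendrocyte markers summed to 16805 to 21052 and 23934 to 34829.6 CPM in the control and to 14760.1 to 28865 and 26124 to 70149.6 in the mutant. In both 4 dpl groups replicate 3 had the highest of these sums and the lowest ER chaperone sum. In both unlesioned groups replicate 1 was highest in both sums. Plasma cells are rich in ER chaperones. Their 7 markers summed to 559.9 to 1664 CPM in control unlesioned libraries and 366 to 798 at 4 dpl, and to 494 to 1698 and 539 to 888 in the mutant. With the lesion 6 of 7 were lower in the control, and 4 were lower and 3 higher in the mutant. Mean Sdc1 went from 13.2 to 20.0 CPM in the control and from 3.83 to 4.92 in the mutant. The part of plasma cells in the ER differences was not tested. The 10 immediate early genes, which respond to tissue handling, summed to 7998 to 12495 and 10364 to 14744 CPM in the control and 9066 to 10353 and 12149.7 to 14055 in the mutant. Their part in the heat shock results was not tested.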

How the data were processed

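RNA of 12 libraries (4 groups of 3) was used. Per the study's methods, the authors sequenced 100-base read pairs on a HiSeq 4000 from 10 ng of RNA, aligned them with BWA to mm10 and counted uniquely aligned reads on exons of Ensembl release 100 with featureCounts (subread 2.0.0), and the deposited counts are raw counts per gene. The submitters' processing notes name STAR and DESeq2 1.2.5 in place of BWA and DESeq2 1.28.1. Whether counting used strand is not given in the sources used here. Unique alignment can lose reads of near-identical copies, here Hspa1a with Hspa1b and genes with processed pseudogenes such as Hspa8, Hspd1 and Hsp90ab1. Of the 39 genes 12 share 12 to 564 exon bases with genes on the opposite strand. All 37 mitochondrial genes stood at 0. Of 2 identifiers named Ddit3, ENSMUSG00000025408 was used, and the other had 0 counts.

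Counts were tested with edgeR 4.0.16 in R 4.3.3 (filterByExpr, 31109 of 54838 genes kept, TMM, quasi-likelihood test), in 1 model with a mean for each group. A gene was called at a p below 0.01 and a Benjamini-Hochberg adjusted p below 0.05 over all genes tested, as in the study. SE is the log2 difference divided by the square root of the F statistic. DESeq2 1.42.0, limma 3.58.1 with voom, other filters and scalings, a replicate block and fits without single libraries were alternatives. The fit was tested on simulated data. The 39 genes and the related and marker lists were chosen with earlier results of these data known, and 15 list symbols were not in the table. All 39 genes could be named, with values in every library for the called genes of smallest p, the sensors, the stress factors and the inducible HSP70 pair. Related genes were named by smallest p. Motifs were searched in RefSeq promoter windows (GRCm38.p6). Depth was 34805086 to 67251544 counts.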

Additional observations from a re-analysis of the deposited data

How the results depend on the processing

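In the comparison averaged over genotypes the 39 genes were called higher 24 times by edgeR and 16 to 27 times when single libraries were left out, 14 times with at least 10 counts in every library and 6 times with TMM on genes of at least 10 CPM. In the control 8 became 14 with DESeq2 or no filter, 2 with at least 10 counts in every library or with only the compared groups in the fit, 25 with voom, 3 with TMM on genes of at least 10 CPM, 20 at an adjusted p below 0.10, and 0 to 20 without single libraries. In the mutant 0 became 9 with DESeq2 or the newer quasi-likelihood option, 1 without a filter, 20 with voom, 15 at an adjusted p below 0.10, and 0 to 15 without single libraries. Counts without single libraries were 0 to 0 between genotypes in unlesioned cord, 0 to 1 at 4 dpl and 0 to 0 for the interaction. The cause of these shifts was not tested.

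A replicate block by label number gave 13 calls in the control, 0 in the mutant and 26 on average, and one by the study's own numbers within each genotype gave 6 and 0. The labels do not say that a number marks a mouse. Correlations of deviations between libraries of the same label number were 0.189, 0.0517 and 0.189 in the control and -0.030, 0.073 and -0.070 in the mutant. They were not all over 0.1, so the fit without the block was kept, although each control library correlated best with that of its own number, a hint from the data and not from the design. A loss or gain of calls under the block is no measure of the size of an effect.

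Directions turned for these averaged log2 differences. With at least 10 counts in every library they were -0.11 for Trib3, -0.060 for Sesn2, -0.27 for Asns, -0.14 for Ddit3, -0.13 for Hsp90aa1 and -0.039 for Atf4. With TMM on genes of at least 10 CPM they were -0.29 for Trib3, -0.24 for Sesn2, -0.46 for Asns, -0.34 for Ddit3, -0.091 for Dnajb1, -0.0066 for Herpud1, -0.021 for Dnajb9, -0.34 for Hsp90aa1, -0.24 for Atf4, -0.15 for Hspa1b and -0.059 for Hsp90ab1. Asns was -0.081 with DESeq2 and with its size factors (RLE), and Eif2ak3 was 0.040 with voom.

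In the control, Ddit3 was -0.0072 with DESeq2, -0.0074 with RLE, -0.22 with at least 10 counts in every library, -0.021 with only the compared groups and -0.42 with TMM on genes of at least 10 CPM. Atf4 was -0.094 and -0.27 under the filter and that scaling, and Eif2ak3 was 0.054 with the replicate block by study number. In the mutant, the same filter gave -0.036 for Eif2ak3 and -0.056 for Ddit3, and the scaling gave -0.25 for Eif2ak3, -0.27 for Ddit3, -0.041 for Xbp1, -0.20 for Atf4 and -0.12 for Hspa1a. Hspa1b in the mutant was 0.043 without a filter, 0.034 with the replicate block by label number and 0.18 with voom. Without single libraries the averaged value ran from -0.099 to 0.53 for Trib3, from -0.17 to 0.24 for Asns and from -0.41 to 0.23 for Eif2ak3. The control value ran from -1.14 to 0.13 for Eif2ak3 and from -0.0054 to 0.19 for Ddit3, and the mutant value from -0.012 to 0.55 for Eif2ak3 and from -0.17 to 0.38 for Hspa1b. None of these genes was called in the comparison named, except Herpud1 on average.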
